A study of Mus musculus with 8 samples.

Results

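The interleukin-1 (IL-1) family and the inflammasome were described in the aorta by 10 genes, taken from the 48607 loci of the expression table by gene name. They were the ligands Il1a, Il1b, Il18 and Il33, the receptor antagonist Il1rn, the receptors Il1r1 and Il1r2, and the inflammasome genes Nlrp3, Pycard and Casp1. Where a name occurred on several rows, the row with the largest sum of counts was used, which concerned Il1r1 (3 rows) and Il1r2 (2 rows). All 10 genes had a row, and none shared its row with another gene name. Poly(A) RNA of the entire aorta was sequenced in 8 libraries, from mice that all lacked apolipoprotein E (ApoE-/-) and had been fed a Western diet for 12 weeks. In 5 libraries the title named ApoE-/- alone, and in 3 it named NPRC-/-ApoE-/-, littermates that also carried a systemic CRISPR frameshift in exon 1 of Npr3, the gene of natriuretic peptide receptor C, on a C57BL/6 background. The comparison asked what loss of this receptor in all tissues goes along with in the atherosclerotic aorta, and neither the deletion nor the tissue sampled is limited to a cell type. ApoE-/- males were bought at 8 weeks of age, and the age of the sequenced littermates at the start of the diet is not given in the sources used here.

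IL-1α and IL-1β bind the same signalling receptor, IL-1R1, which recruits MyD88 and IRAK kinases and activates NF-κB. IL-1Ra, the product of Il1rn, occupies that receptor without signalling, and IL-1R2 is a decoy that binds ligand without a signalling domain. IL-1β and IL-18 are made as inactive precursors that caspase-1 cleaves after it is recruited through the adaptor ASC (Pycard) to a sensor such as NLRP3, whereas IL-33 is a nuclear alarmin of stromal and endothelial cells, and in atherosclerotic plaques macrophages are a known source of IL-1β. Transcript levels, which are all that was measured here, do not show whether a precursor was cleaved or released.

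The labels of the libraries contradicted each other. A separate genotype entry gave NPRC-/-ApoE-/- where the title read ApoE-/- 4 or 5, and ApoE-/- alone where it read NPRC-/-ApoE-/- 1 or 2. It matched the title in the other 4 libraries, and either label gives groups of 5 and 3. Groups below are those of the title, the main results are also given by genotype entry, and a direction therefore belongs to the libraries so labelled. Npr3 did not tell the labels apart. It stood at 1.69 FPKM (fragments per kilobase of transcript length, corrected for library size) in ApoE-/- 1, 0.93 in ApoE-/- 2, 0.62 in ApoE-/- 3, 1.01 in ApoE-/- 4 and 1.67 in ApoE-/- 5, against 1.18 in NPRC-/-ApoE-/- 1, 1.39 in NPRC-/-ApoE-/- 2 and 1.13 in NPRC-/-ApoE-/- 3, and a frameshift need not lower the transcript. Depth was 62969165 to 86693276 counts per library. Members with few reads carried a larger counting error, and Il1r2 (8 to 355 counts) and Il18 (18 to 95 counts) had the fewest.

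Il1a and Il1b, the members with the largest differences among those tested, lie close together on the minus strand of chromosome 2, and Il1rn lies on the plus strand of the same chromosome. Their promoter windows are shown because these genes carry the comparison of ligand with antagonist below. Each line gives the 250 bases before the transcription start, 5′ to 3′ on the gene's strand, from RefSeq (GRCm38.p6), at chr2:129309973-129310222 for Il1a, chr2:129371140-129371389 for Il1b and chr2:24336610-24336859 for the first of the 3 starts of Il1rn. Capitals mark matches to the motifs searched.
Il1a: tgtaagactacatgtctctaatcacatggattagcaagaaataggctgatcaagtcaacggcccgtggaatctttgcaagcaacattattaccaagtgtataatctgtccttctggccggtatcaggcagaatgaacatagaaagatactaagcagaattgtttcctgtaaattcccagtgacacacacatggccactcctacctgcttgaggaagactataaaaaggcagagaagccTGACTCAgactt
Il1b: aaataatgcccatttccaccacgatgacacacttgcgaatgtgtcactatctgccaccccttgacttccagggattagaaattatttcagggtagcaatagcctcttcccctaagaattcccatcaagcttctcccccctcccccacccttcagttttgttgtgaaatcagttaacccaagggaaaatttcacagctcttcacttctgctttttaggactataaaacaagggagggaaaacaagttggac
Il1rn: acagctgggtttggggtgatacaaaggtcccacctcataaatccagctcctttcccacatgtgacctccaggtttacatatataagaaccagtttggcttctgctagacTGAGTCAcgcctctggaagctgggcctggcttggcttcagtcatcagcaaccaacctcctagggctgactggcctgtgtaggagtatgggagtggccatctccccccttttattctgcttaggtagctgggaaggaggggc
All 10 genes had at least 1 RefSeq window of 300 bases, from 250 before to 50 after the start, and there were 15 windows in all. The motifs, searched on both strands, were GGNNTTTCC (NF-κB type), TGANTCA (AP-1), TTGCNNAA (C/EBP type), GAGGAAGT (PU.1 type) and TTCNNNGAA (GAS), which overlapped each other at no match within these windows. Among all 32851 windows the shares that held them were 5.8, 7.8, 10.8, 3.2 and 8.3%, in that order. The AP-1 letters stood in the windows of 2 genes, Il1a (first base at -12 from the start) and Il1rn (at -141). The NF-κB type letters stood in those of Il1rn and Nlrp3, the C/EBP type letters in those of Il1r1, Il33 and Pycard, the GAS letters in that of Il1r2 and the PU.1 type letters in that of Pycard. The windows of Il1b, Il18 and Casp1 held no match, which says only that these letters are absent from these bases.

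Grouped by title, all 7 members that could be tested had a log2 fold change below 0 in the NPRC-/-ApoE-/- libraries, where 50.9% of the 20506 loci tested did. Of these, 4 were lower at an unadjusted p-value under 0.05 (Il1a, Il1b, Il33 and Casp1), against 7.13% of all loci. Il1a and Il1b also met the study's criterion of a fold below 0.5 at such a p-value, against 2.39% of all loci. The median log2 fold change of the 7 was -0.86, and that of all loci was -0.01. In 3 of the 7 (Il33, Casp1 and Pycard) every NPRC-/-ApoE-/- library lay below every ApoE-/- library in log2 CPM (counts scaled to a common library size), against 3.69% of all loci. None of the 7 had an adjusted p-value under 0.05, as for 0.0% of all loci (quasi-likelihood test of edgeR, Benjamini-Hochberg adjusted over all loci, members between 0.28 and 0.80), and DESeq2 and limma called 0 of the 7. DESeq2 called 3.17% of all loci and limma with sample quality weights 0.634%, and the smallest adjusted value of a member was 0.0588, for Il33 with DESeq2. Tested loci had at least 1 FPKM in at least 3 libraries, a filter that Il1r2, Il18 and Nlrp3 did not pass, so their values come from the same fit without it. Il1a and Il1b reached 1 FPKM in 1 NPRC-/-ApoE-/- library each and passed mainly through the ApoE-/- libraries, so the counts over the 7 are descriptions and support nothing. Without the filter, 10 of 10 members had a log2 fold change below 0 (53.2% of 44689 loci), 5 were lower at an unadjusted p-value under 0.05 (5.92%) and 3 met the study's criterion (3.45%).

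**Figure D1:**
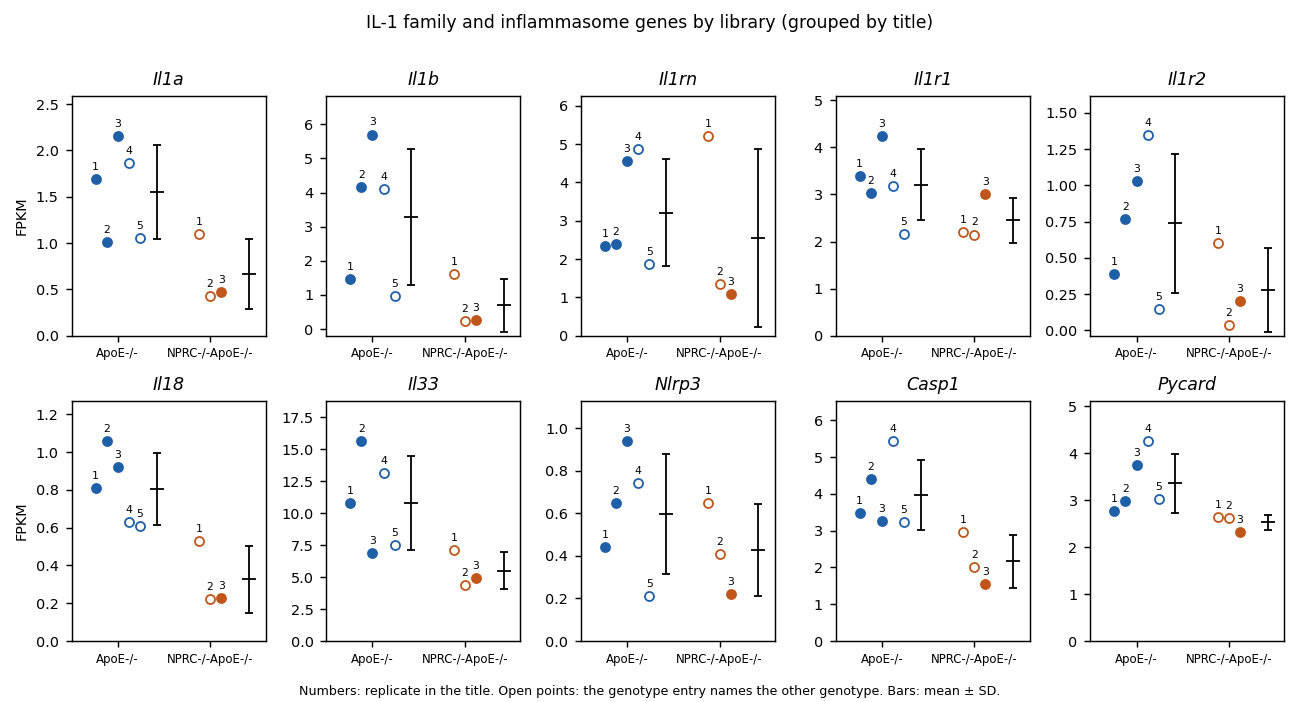
FPKM of the 10 genes in each library, grouped by title; numbers are the replicate in the title, open points are libraries whose genotype entry names the other genotype, and bars are mean ± SD. NPRC-/-ApoE-/- 2 and 3 sit low in most panels, at 0.24 and 0.27 FPKM for Il1b, while NPRC-/-ApoE-/- 1 sits among the ApoE-/- libraries for Il1b (1.6) and above all of them for Il1rn (5.22).

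Il1b (ENSMUSG00000027398, chromosome 2, 129364570 to 129371139), the main secreted ligand of the family, had the widest fold range across libraries among the tested members. It was at 1.47, 4.16, 5.7, 4.09 and 0.96 FPKM in ApoE-/- 1 to 5, and at 1.6, 0.24 and 0.27 FPKM in NPRC-/-ApoE-/- 1 to 3. The groups overlapped, because NPRC-/-ApoE-/- 1 lay above ApoE-/- 1 and 5, while NPRC-/-ApoE-/- 2 and 3 lay below all others. The mean was 3.28 ± 1.99 FPKM (SD, n = 5) against 0.703 ± 0.777 (SD, n = 3), and the log2 fold change was -2.25 (SE 0.84, unadjusted p = 0.0248, adjusted p = 0.32, edgeR). Leaving out a single library moved it from -3.67 (without NPRC-/-ApoE-/- 1) to -1.82 (without NPRC-/-ApoE-/- 2, unadjusted p = 0.0769), and the unadjusted p also exceeded 0.05 without NPRC-/-ApoE-/- 3 (0.0823) and, narrowly, without ApoE-/- 3 (0.05005).

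Il1a (ENSMUSG00000027399, chromosome 2, 129299610 to 129309972), whose product acts as a cell-associated alarmin at the same receptor, followed a narrower range. Its level was 1.69, 1.01, 2.16, 1.86 and 1.05 FPKM in ApoE-/- 1 to 5 and 1.1, 0.43 and 0.47 FPKM in NPRC-/-ApoE-/- 1 to 3. Only NPRC-/-ApoE-/- 1 overlapped the ApoE-/- libraries, and it exceeded ApoE-/- 2 and 5 slightly. The log2 fold change was -1.23 (SE 0.42, unadjusted p = 0.0175, adjusted p = 0.31, edgeR), whose p-value exceeded 0.05 when NPRC-/-ApoE-/- 2 (unadjusted p = 0.0684) or 3 (unadjusted p = 0.0671) was left out. The ratio of Il1b to Il1a on the log2(FPKM + 0.1) scale was 0.82 ± 0.94 (SD, n = 5) in ApoE-/- and -0.25 ± 0.66 (n = 3) in NPRC-/-ApoE-/-, a difference of -1.07 with overlapping groups (exact permutation test, p = 0.179).

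Il33 (ENSMUSG00000024810, chromosome 19, 29925114 to 29960718) was the most abundant member by FPKM. It reached 10.76, 15.64, 6.9, 13.13 and 7.51 FPKM in ApoE-/- 1 to 5 and 7.13, 4.4 and 4.95 FPKM in NPRC-/-ApoE-/- 1 to 3. In FPKM the groups touched, since NPRC-/-ApoE-/- 1 exceeded ApoE-/- 3, but in TMM-scaled log2 CPM the lowest ApoE-/- library, ApoE-/- 5 (4.645), lay just above NPRC-/-ApoE-/- 1 (4.636). Its log2 fold change was -0.95 (SE 0.30, unadjusted p = 0.0111, adjusted p = 0.28, edgeR), at an unadjusted p = 0.0518 without NPRC-/-ApoE-/- 2. The order of libraries differed from that of Il1b: Il33 was highest in ApoE-/- 2, and ApoE-/- 3, the highest for Il1b, was among the lower libraries for Il33.

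Il18 (ENSMUSG00000039217, chromosome 9, 50554827 to 50581840), the other ligand that caspase-1 matures, was scarce. Its values were 0.81, 1.06, 0.92, 0.63 and 0.61 FPKM in ApoE-/- 1 to 5 and 0.53, 0.22 and 0.23 FPKM in NPRC-/-ApoE-/- 1 to 3. All 3 NPRC-/-ApoE-/- libraries lay below the 5 others, though the gap between 0.53 and 0.61 FPKM is that between 58 and 59 counts before scaling for depth. Without the filter its log2 fold change was -1.26 (SE 0.40, adjusted p = 0.36, edgeR).

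Il1rn (ENSMUSG00000026981, chromosome 2, 24336853 to 24351494), the antagonist, did not separate the titled groups. It measured 2.34, 2.4, 4.55, 4.88 and 1.88 FPKM in ApoE-/- 1 to 5 and 5.22, 1.35 and 1.08 FPKM in NPRC-/-ApoE-/- 1 to 3. NPRC-/-ApoE-/- 1 held the highest value of all 8 libraries and the other 2 of its group the lowest. The log2 fold change was -0.36 (SE 0.56, unadjusted p = 0.54, adjusted p = 0.80, edgeR), and the value rested on that library: without it the log2 fold change was -1.39 (unadjusted p = 0.0192, adjusted p = 0.154), and without NPRC-/-ApoE-/- 3 it was 0.01.

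Set against Il1b in the same library, Il1rn was relatively higher in the NPRC-/-ApoE-/- libraries. The ratio of Il1rn to Il1b in FPKM was 1.59, 0.577, 0.798, 1.19 and 1.96 in ApoE-/- 1 to 5 and 3.26, 5.63 and 4.0 in NPRC-/-ApoE-/- 1 to 3. The groups did not overlap, and NPRC-/-ApoE-/- 1, which was out of place for each gene alone, lay with its group in the ratio. On the log2(FPKM + 0.1) scale the difference was 1.66 (0.14 ± 0.68, SD, n = 5, against 1.80 ± 0.25, n = 3; two-sided exact permutation test, p = 0.0357, the smallest this design can give, and 0.229 after adjustment over the 8 ratios computed). By genotype entry the same ratio differed by 0.28 with overlapping groups (exact permutation test, p = 0.75).

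**Figure D2:**
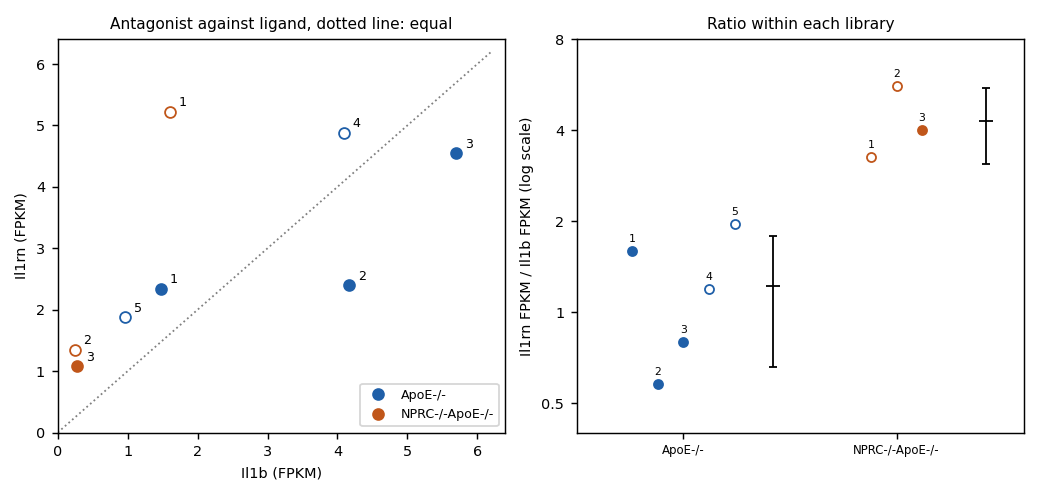
Left, Il1rn against Il1b in FPKM in each library, the dotted line marking equal values; right, the ratio of both per library on a log2 axis by title, with mean ± SD of the ratio; open points are libraries whose genotype entry names the other genotype. The NPRC-/-ApoE-/- libraries lie between 3.26 and 5.63 and the ApoE-/- libraries between 0.577 and 1.96.

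The level of this ratio, unlike its difference between groups, depends on the lengths behind FPKM. The length implied by the counts and FPKM was 1.20 to 1.25 times the annotated exons in 7 members, 2.90 times for Il1b, 1.65 times for Il1r2 and 10.3 times for Il1r1. The rows of these 3 genes list StringTie transcripts beside the annotated ones, and their FPKM levels are low relative to counts over annotated exons. Levels are therefore given on both scales. By mean FPKM over the 8 libraries the order was Il33 (8.80 ± 3.99, SD), Casp1 (3.29), Pycard (3.04), Il1rn (2.96), Il1r1 (2.92), Il1b (2.31), Il1a (1.22), Il18 (0.626), Il1r2 (0.566) and Nlrp3 (0.532). Il33 exceeded Casp1 in 8 of 8 libraries and Il1a exceeded Il18 in 7 of 8, while each other pair of neighbours was in that order in only 3 to 5 libraries and did not differ beyond their spread. Per kilobase of annotated exon, Il1r1 came first (30.2 CPM per kilobase), followed by Il33 (10.6) and Il1b (6.65). That scale divides all counts of a row by the annotated exons alone, so it can overstate Il1r1, Il1b and Il1r2. Which scale lies closer to the true level of these 3 genes was not tested.

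The receptors differed from each other. Il1r1 (ENSMUSG00000026072, chromosome 1, 40225080 to 40317257), the signalling receptor, was even across libraries, at 3.4, 3.04, 4.25, 3.18 and 2.16 FPKM in ApoE-/- 1 to 5 and 2.2, 2.15 and 3.0 FPKM in NPRC-/-ApoE-/- 1 to 3. The groups overlapped, with ApoE-/- 5 next to the lowest of the other group. Its log2 fold change was -0.37 (SE 0.25, unadjusted p = 0.18, adjusted p = 0.53, edgeR). It was -0.50 (unadjusted p = 0.0452) without ApoE-/- 5, -0.20 (unadjusted p = 0.401) without ApoE-/- 3 and -0.57 without NPRC-/-ApoE-/- 3. The row used held 90.96% of the counts named Il1r1, and summing the 3 rows gave -0.38. Il1r2 (ENSMUSG00000026073, chromosome 1, 40074079 to 40125231), the decoy, varied far more, at 0.39, 0.77, 1.03, 1.35 and 0.15 FPKM in ApoE-/- 1 to 5 and 0.6, 0.04 and 0.2 FPKM in NPRC-/-ApoE-/- 1 to 3. ApoE-/- 1 and 5 fell within the range of the NPRC-/-ApoE-/- libraries, and the lowest value rested on 8 counts. Without the filter its log2 fold change was -1.43 (SE 0.86, adjusted p = 0.54, edgeR), and the log2 ratio of Il1r2 to Il1r1 differed by -0.83 between the groups (exact permutation test, p = 0.286). Without NPRC-/-ApoE-/- 1 these values were -2.59 and -1.49, and without NPRC-/-ApoE-/- 2 they were -0.89 and -0.35.

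Of the inflammasome genes, Casp1 and Pycard separated the titled groups and Nlrp3 did not. Casp1 (ENSMUSG00000025888, chromosome 9, 5298517 to 5307265), the protease, was at 3.48, 4.41, 3.26, 5.44 and 3.24 FPKM in ApoE-/- 1 to 5 and at 2.96, 2.0 and 1.55 FPKM in NPRC-/-ApoE-/- 1 to 3. Each NPRC-/-ApoE-/- library was below the lowest ApoE-/- library, and NPRC-/-ApoE-/- 1 lay closest to it. The log2 fold change was -0.86 (SE 0.27, unadjusted p = 0.0118, adjusted p = 0.29, edgeR), and -0.68 (unadjusted p = 0.0519) without NPRC-/-ApoE-/- 3. Pycard (ENSMUSG00000030793, chromosome 7, 127989708 to 127993867), the adaptor, varied least, at 2.77, 2.98, 3.75, 4.26 and 3.02 FPKM against 2.63, 2.61 and 2.33. The groups were separate but close, and the log2 fold change of -0.40 (SE 0.20, unadjusted p = 0.0795, adjusted p = 0.41, edgeR) did not pass.

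Nlrp3 (ENSMUSG00000032691, chromosome 11, 59541568 to 59566956), the sensor, was the least abundant member by FPKM. It stood at 0.44, 0.65, 0.94, 0.74 and 0.21 FPKM in ApoE-/- 1 to 5 and at 0.65, 0.41 and 0.22 FPKM in NPRC-/-ApoE-/- 1 to 3. The groups overlapped almost entirely, and ApoE-/- 5 was the lowest library. Without the filter the log2 fold change was -0.50 (SE 0.50, adjusted p = 0.70, edgeR), at -0.92 without NPRC-/-ApoE-/- 1 and -0.18 without NPRC-/-ApoE-/- 3. The log2 ratio of Casp1 to Pycard differed by -0.48 between the titled groups, with overlap (exact permutation test, p = 0.107).

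Grouped by genotype entry, the members' values overlapped throughout. The log2 fold changes were -0.16 for Il1a, -0.54 for Il1b, -0.25 for Il1rn, -0.08 for Il1r1, -0.02 for Il33, 0.12 for Casp1 and 0.15 for Pycard, and without the filter 0.06 for Il1r2, -0.50 for Il18 and -0.62 for Nlrp3. Among the 7 tested, SE ran from 0.24 for Pycard to 1.03 for Il1b. Of the 7, 5 were below 0 (51.0% of all loci), and 0 reached an unadjusted p-value under 0.05 (0.697% of all loci, lower), the study's criterion (0.263%) or non-overlapping groups (0.566%). All adjusted p-values were 1. In the 4 libraries whose labels agree, NPRC-/-ApoE-/- 3 lay below ApoE-/- 1, 2 and 3 in FPKM for each of the 10 members. The margin was small for Il1r1 (3.0 against 3.04 in ApoE-/- 2), and the share of all loci was not computed in FPKM. On the log2 CPM scale 9 of the 10 members were lower, and 6 of the 7 tested, all except Il1r1. Of all loci tested, 31.4% were lower on that scale. With 1 library in a group, these are values without a test.

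**Figure D3:**
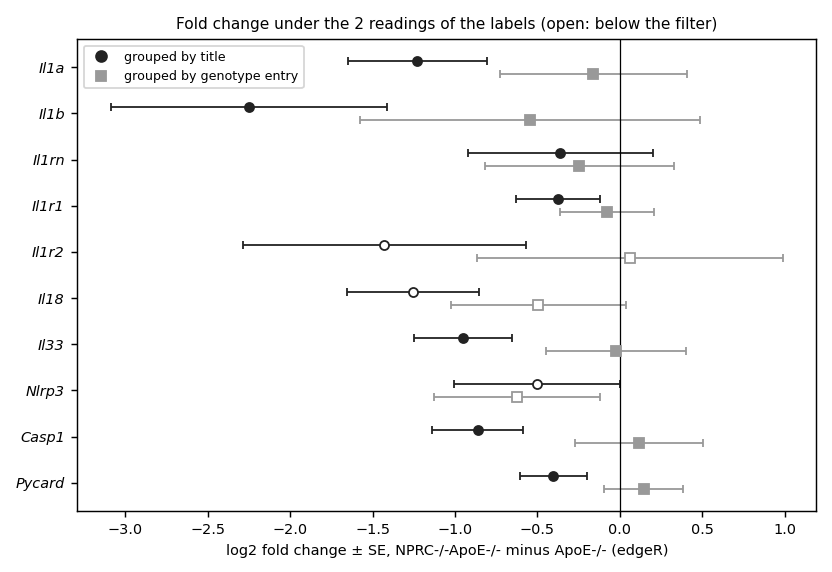
Log2 fold change ± SE of each member from edgeR, NPRC-/-ApoE-/- minus ApoE-/-, with libraries grouped by title (black circles) or by genotype entry (grey squares); open symbols are members below the filter on low values. By title all 10 values lie below 0, down to -2.25 for Il1b, and by genotype entry they lie between -0.62 for Nlrp3 and 0.15 for Pycard.

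Across the 8 libraries most members shared their high and low libraries. ApoE-/- 3 and ApoE-/- 4 were each among the 3 highest libraries for 9 of the 10 members, and NPRC-/-ApoE-/- 2 was among the 3 lowest for all 10 and NPRC-/-ApoE-/- 3 for 9. ApoE-/- 5 and NPRC-/-ApoE-/- 1 were each among the 3 lowest for 5 members. The Pearson correlation of log2 CPM across the 8 libraries was 0.93 between Il1b and Il18, 0.91 between Il1b and Il1r2, 0.90 between Il33 and Casp1 and 0.89 between Il1a and Il1b, and lowest at 0.33 between Il1r1 and Casp1. These are descriptions over 8 points that share library, depth and scaling.

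Among 14890 named loci tested, those most like Il1b across the 8 libraries were Rac2 (r = 0.997), a haematopoietic small GTPase, Csf1r (r = 0.995), the receptor for macrophage colony-stimulating factor, and Pld4 (r = 0.995). Csf1r was at 24.9, 34.9, 38.6, 34.1 and 20.6 FPKM in ApoE-/- 1 to 5 and 22.7, 13 and 12.5 FPKM in NPRC-/-ApoE-/- 1 to 3, a narrower range than that of Il1b. Those most like Il1a were Plxnd1 (0.994), Ptpre (0.991) and Itga6 (0.991), and those most like Il1rn were Heatr1 (0.992), Gnpda1 (0.988) and Glipr1 (0.985). These correlations are of log2 CPM. In FPKM, Heatr1 was nearly even, at 3.54 to 4.59, where Il1rn ran from 1.08 to 5.22. For Il33 they were a row shared by Gm45552 and Mir150 (0.989), Haus7 (0.983) and Ms4a6b (0.977), for Casp1 they included Vbp1 (0.975) and Rest (0.973), for Il1r1 they were A730085K08Rik (0.98), Bbc3 (0.974) and Stx4a (0.968), and for Pycard they were Ndst2 (0.974), a row shared by Gm27406 and Pcbp2 (0.965) and Sesn3 (0.962).

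Cell type markers also differed between the titled groups. In whole tissue, fewer cells of a type and less RNA per cell cannot be told apart. By title, 50.9% of the 20506 loci tested had a log2 fold change below 0. Lower at an unadjusted p-value under 0.05 were 7.13%, and 2.39% also met the fold criterion. In either direction, 2797 loci had such a p-value. All 10 macrophage markers were tested, 10 had a log2 fold change below 0 and 4 were lower at an unadjusted p-value under 0.05 (Csf1r, Fcgr1, Mrc1 and C1qa), with a median of -0.97. Their summed level was 610.1 to 1831.9 FPKM in ApoE-/- and 299.9 to 969.0 FPKM in NPRC-/-ApoE-/-, led by Lyz2 and C1qa, and none was at 0. All 7 smooth muscle markers, led by Acta2 and Tagln, were higher at an unadjusted p-value under 0.05 (median 0.66), with a summed level of 1307 to 1750 FPKM against 1681 to 2898 FPKM, and its mean log2 CPM did not overlap (8.91 to 9.28 against 9.29 to 10.16). Neutrophil markers, of which Ly6g was at 0 in 4 libraries, summed to 4.57 to 15.82 FPKM against 3.14 to 14.98 FPKM, with Csf3r and S100a8 highest and a median log2 fold change of -0.43 over the 5 tested. Fibroblast markers (led by Col1a1 and Lum) had a median of -0.85 with 6 of 6 below 0, T cell markers (Cd4, Trac) 3 of 3, endothelial markers (Vwf, Pecam1) a median of -0.12 and adipocyte markers (Ucp1, Cidea) 0.12, while 1 B cell marker (Cd79b) and 0 mesothelial markers (Upk3b and Msln highest) passed the filter. Of 7 dendritic cell markers (Itgax and Zbtb46 highest), 4 passed the filter, with a median log2 fold change of -1.42. Of these 4, 3 were lower at an unadjusted p-value under 0.05 and met the fold criterion. They were Cd209a (-1.68, unadjusted p = 0.000938), Ccr7 (-1.58) and Itgax (-1.26) in edgeR, while Zbtb46 was at 0.07. Cd209a and Ccr7 reached 1 FPKM in 1 NPRC-/-ApoE-/- library each. They passed mainly through the ApoE-/- libraries, so these counts are descriptions. By genotype entry the medians were -0.17 for macrophage markers with 0 of 10 at an unadjusted p-value under 0.05, 0.21 for smooth muscle with 0 of 7, -0.17 for dendritic cell, -0.09 for fibroblast, 0.28 for T cell, -0.08 for neutrophil, -0.05 for endothelial and -0.14 for adipocyte markers. The part of these cell types in the members' differences was not tested.

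In log2 CPM relative to the mean of the macrophage list in the same library, the 4 members compared did not separate the titled groups. The difference was -1.57 for Il1b (exact permutation test, p = 0.107), 0.04 for Casp1 (p = 1), 0.48 for Nlrp3 (p = 0.143) and 0.54 for Pycard (p = 0.143), with overlapping groups in each case. Leaving out a library moved the value of Nlrp3 from 0.29 (without NPRC-/-ApoE-/- 2) to 0.69 (without NPRC-/-ApoE-/- 3) and that of Pycard from 0.36 (without NPRC-/-ApoE-/- 2) to 0.87 (without NPRC-/-ApoE-/- 1). The p-values of these tests adjusted over the 8 ratios were 0.229 or more.

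**Figure D4:**
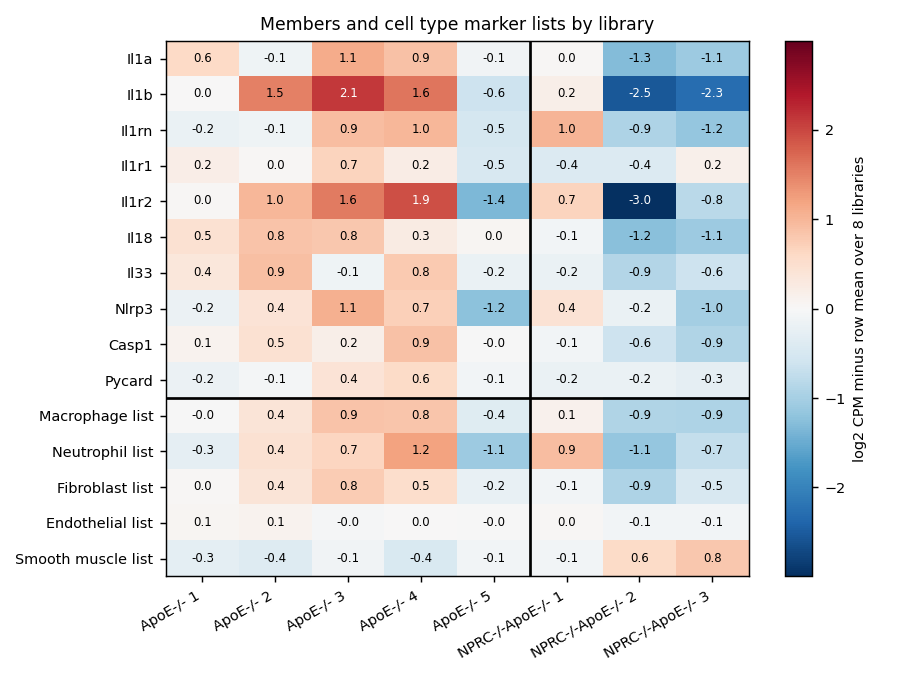
Log2 CPM minus the mean over the 8 libraries for the 10 members (top) and for the mean of 5 marker lists (bottom), by library; red is above and blue below the mean. Il1b and the macrophage list are high in ApoE-/- 2, 3 and 4 and low in NPRC-/-ApoE-/- 2 and 3, where the smooth muscle list is high.

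The other genes of the pathway were described from lists. Of 14 other ligands and receptors of the family, 11 had a row and 3 passed the filter. In 2 of the 3 the groups did not overlap in log2 CPM (3.69% of all loci). Il18bp, the soluble protein that binds IL-18, was lower at 4.59 to 5.33 FPKM in NPRC-/-ApoE-/- against 7.14 to 9.65 FPKM in ApoE-/- without overlap (log2 fold change -0.72, SE 0.18, unadjusted p = 0.00266, adjusted p = 0.26, edgeR). Il1rap, the accessory chain of the receptor, was at 0.91 to 0.98 FPKM against 1.11 to 1.26 FPKM, also without overlap (log2 fold change -0.29, unadjusted p = 0.0573, adjusted p = 0.38, edgeR), and as no NPRC-/-ApoE-/- library reached 1 FPKM it passed the filter through the ApoE-/- libraries alone. Il1rapl1 also passed the filter, at a log2 fold change of 1.29 with overlap (unadjusted p = 0.0762, adjusted p = 0.41, edgeR). Il1rl1, the receptor of IL-33, was below the filter at 0.25 to 0.37 FPKM against 0.40 to 0.78 FPKM.

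Signalling genes downstream of the receptor had small differences, most of them below 0. Of 18 tested, 15 had a log2 fold change below 0 (50.9% of all loci), with a median of -0.16 (all loci, -0.01). At an unadjusted p-value under 0.05, 2 were lower (7.13% of all loci), and 0 met the fold criterion (2.39%). The 2 were Irak4 (log2 fold change -0.48, unadjusted p = 0.0182) and Myd88 (-0.63, unadjusted p = 0.0363), a kinase and an adaptor of the receptor complex, both with adjusted p-values above 0.3 (0.31 and 0.34, edgeR). In 2 of the 18, Irak4 and Tab2, the groups did not overlap in log2 CPM (3.69% of all loci). Irak4 was at 2.37 to 2.44 FPKM in NPRC-/-ApoE-/- against 2.73 to 3.86 FPKM in ApoE-/-. Tab2 was at 5.94 to 6.36 FPKM against 6.75 to 7.62 FPKM (log2 fold change -0.19, unadjusted p = 0.129, edgeR).

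Of 23 other inflammasome and pyroptosis genes, 18 were tested, with a median log2 fold change of -0.69 (all loci, -0.01). Below 0 were 17 (50.9% of all loci), and 11 were lower at an unadjusted p-value under 0.05 (7.13%). The fold criterion was met by 4 (2.39% of all loci). They were Nlrp1b (-1.45), Mefv (-1.37) and Aim2 (-1.08), which are sensors, and Serpinb1a (-1.04), an inhibitor of neutrophil serine proteases. Nlrp1b shared its row with another gene name, and Aim2, below 1 FPKM in every NPRC-/-ApoE-/- library, passed the filter only through the ApoE-/- libraries, so that these counts, like those of the next list, are descriptions. None of the 18 separated the titled groups, and Mefv for example was at 1.00 to 2.70 FPKM in ApoE-/- and 0.37 to 1.31 FPKM in NPRC-/-ApoE-/-. Gsdmd, the pore-forming substrate of caspase-1, had a log2 fold change of -0.60 (unadjusted p = 0.0405, adjusted p = 0.34, edgeR), and Txnip, the only one above 0, was at 0.13.

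Of 18 genes known to respond to IL-1, 14 were tested, with a median log2 fold change of -1.05 (all loci, -0.01). All 14 were below 0 (50.9% of all loci). At an unadjusted p-value under 0.05, 7 were lower (7.13%), and 5 of them met the fold criterion (2.39%). The 5 were the cytokine Il6 (-3.48), the acute-phase gene Saa3 (-2.72), the chemokines Cxcl1 (-1.51) and Ccl7 (-1.25, on a row shared with another gene name) and the endothelial adhesion molecule Sele (-1.23). Il6 and Ccl7 were below 1 FPKM in every NPRC-/-ApoE-/- library and passed the filter only through the ApoE-/- libraries. In 2 of the 14, Saa3 and Ccl7, the groups did not overlap in log2 CPM (3.69% of all loci). Saa3 was at 2.03 to 8.26 FPKM in ApoE-/- and 0.29 to 1.72 FPKM in NPRC-/-ApoE-/- (unadjusted p = 0.00491, adjusted p = 0.26, edgeR). Ccl7 was at 0.64 to 1.67 against 0.39 to 0.59 FPKM (unadjusted p = 0.0027, adjusted p = 0.26, edgeR). The groups overlapped for Il6, at 0.21 to 8.18 against 0.06 to 0.67 FPKM. Nfkbia, an early NF-κB target, was at a log2 fold change of -0.01. By genotype entry the medians of the 4 lists were 0.007, -0.03, -0.16 and -0.36 in the order above, and these genes respond to other stimuli too.

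**Figure D5:**
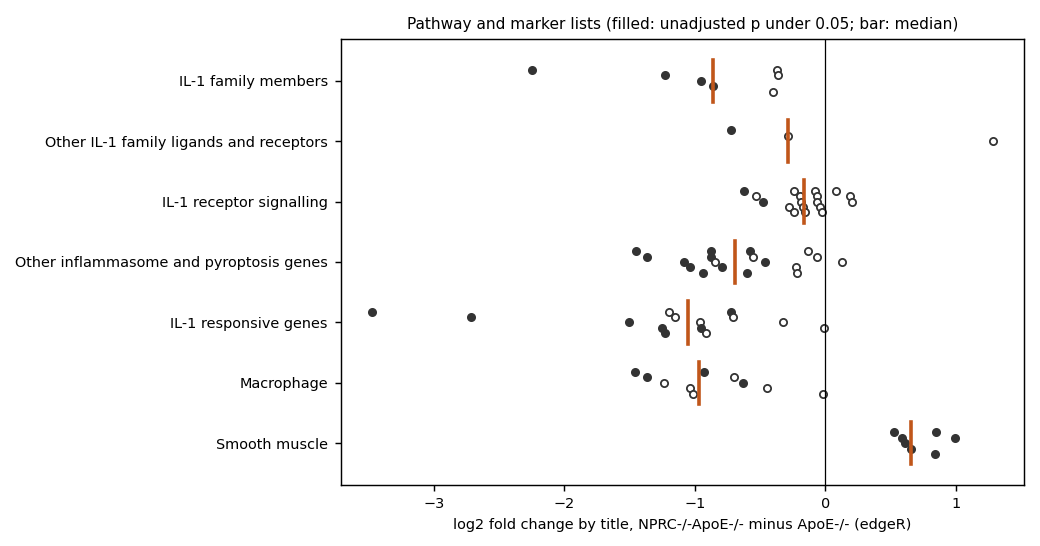
Log2 fold change by title of every tested gene of the members, the 4 other pathway lists and the macrophage and smooth muscle lists; filled points have an unadjusted p-value under 0.05 and the bar is the list's median. The medians run from -1.05 for the IL-1 responsive genes to 0.66 for smooth muscle.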

How the data were processed

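RNA-seq of entire aortas was analysed in 8 libraries, with 5 titled ApoE-/- and 3 titled NPRC-/-ApoE-/-; the series' design text gives as many mice, whereas the study's methods give 5 mice per group. The authors prepared poly(A) libraries from 1 μg RNA per sample, sequenced paired reads of 150 bases, trimmed them (cutadapt 1.9 per the submitters' processing notes), mapped them with HISAT2 (genome build GRCm38 per the same notes) and assembled them with StringTie. The authors deposited whole-number counts per locus without normalization, and FPKM values, which they scaled to transcript length and library size. How the counts were derived and whether strand was used are not given in the sources used here. The table had 0 columns of values without a sample.

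The filter kept 20506 loci that reached 1 FPKM in 3 or more libraries, and their deposited counts were fitted with edgeR 4.0.16 in R 4.3.3 (TMM, quasi-likelihood test, Benjamini-Hochberg adjustment over all loci). The study's criterion required a 2-fold difference in either direction and an unadjusted p-value under 0.05. The biological coefficient of variation was 0.327. Log2 CPM used a prior count of 2. Ratios between members used log2(FPKM + 0.1), and those to the macrophage list used log2 CPM. Both were compared with two-sided exact permutation tests in scipy 1.17.1. Counts of every pair of libraries within a titled group differed by more than sampling noise (mean chi-square per locus at least 101.8). The test was tested on simulated data. DESeq2 1.42.0 and limma 3.58.1 were alternatives, besides the label, scaling, filter, pseudocount, row choice, replicate block and each library left out. The members and lists were chosen with earlier results of these data known. Named were all members, Npr3, list genes past the study's criterion (up to 6 a list, or the 2 with the smallest p-values), the 2 most abundant markers of a list and the 3 loci most like each tested member. Il1rl1, Gsdmd, Txnip, Nfkbia, Fcgr1, Csf1r and Mrc1, Ly6g, Cd209a, Ccr7, Il1rapl1 and Tab2 were added after their values were seen. The result of 1 locus that this rule names is not reported here. Gene positions are from GENCODE M21 and promoters from RefSeq.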

Additional observations from a re-analysis of the deposited data

Results flagged for a closer look

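Among 36 groups of 5 libraries examined for a library far from the rest, 3 held one, where chance alone gives about 1 in 20. Pycard stood at 4.28 log2 CPM in ApoE-/- 3 within the 5 libraries entered as ApoE-/-, and the nearest of the others was at 3.81. The log2 ratio of Casp1 to the macrophage list was -4.92 in ApoE-/- 3 within the libraries titled ApoE-/-, with the nearest at -4.18. The log2 ratio of Pycard to the macrophage list was -2.19 in NPRC-/-ApoE-/- 2 within the libraries entered as ApoE-/-, with the nearest at -3.05.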

How the results depend on the processing

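The conflicting labels and the 3 libraries in 1 group limit these results. By genotype entry in place of the title, 0 members were lower at an unadjusted p-value under 0.05 (4 by title), 0 met the study's criterion (2 by title), Casp1 (0.12), Pycard (0.15) and Il1r2 (0.06) changed sign, as did the Nlrp3 to macrophage ratio (-0.58), the Il1rn to Il1b ratio differed by 0.28, and the medians of the other ligands and receptors, signalling, inflammasome and responsive lists were 0.00703, -0.0276, -0.158 and -0.362. With a mean of at least 5 FPKM as the filter, Il33 alone was tested, which left 1 member below 0, 1 at an unadjusted p-value under 0.05 and 0 past the criterion. With limma on log2(FPKM + 1), 1 member met the criterion, as did 0.668% of all loci in that direction (2.39% in edgeR).

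Leaving out each library in turn gave 1 to 5 members at an unadjusted p-value under 0.05, 0 to 5 past the criterion and 6 to 7 below 0. The first count was 1 and the second 0 without NPRC-/-ApoE-/- 2 or 3, and both were 5 without NPRC-/-ApoE-/- 1. The shares of all loci moved too, with 2.92, 3.41 and 11.6% lower at such a p-value and 1.11, 1.32 and 5.32% past the criterion without NPRC-/-ApoE-/- 2, 3 and 1, respectively. Without NPRC-/-ApoE-/- 1 the median of the inflammasome list was -1.045 and that of the neutrophil list -1.46, which was 0.0069 without NPRC-/-ApoE-/- 2. Il1rn was at 0.0065 without NPRC-/-ApoE-/- 3 and at -1.39 without NPRC-/-ApoE-/- 1. The Il1rn to Il1b ratio differed by 1.44 to 1.85, where the exact test could no longer reach 0.05. The Casp1 to macrophage ratio differed by -0.12 to 0.16, at -0.12 without ApoE-/- 3 and -0.08 without NPRC-/-ApoE-/- 2. Leaving Cd68 out of the macrophage list, chosen after seeing the data because its row carries other gene names, changed no direction.

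Same-numbered libraries of the titled groups did not deviate together (correlations -0.27, -0.13 and -0.01), so the numbers were not read as pairs. With the replicate block in these 6 libraries, 1 member met the criterion (2.6% of all loci, and 2.86% without the block), Il1b was at -2.98 (edgeR, p = 0.0509) and the Il1rn to Il1b ratio over the 3 pairs differed by 1.95 (exact permutation test, p = 0.25, the smallest possible). Over all loci, DESeq2 gave 650 adjusted p-values under 0.05 and edgeR 0, and why they differ was not tested.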
